A study of Mus musculus with 15 samples.

Results

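The Krüppel-like factors *Klf2*, *Klf3*, *Klf4*, *Klf5*, *Klf6*, *Klf7*, *Klf9*, *Klf10*, *Klf13* and *Klf15* were compared between populations that the authors order as an endothelial hierarchy of B16-F0 melanoma. These 10 genes were selected by symbol among the 53465 genes of the deposited table of normalized counts, and 7 further Klf genes in that table (*Klf1*, *Klf8*, *Klf11*, *Klf12*, *Klf14*, *Klf16* and *Klf17*) are described after them. B16-F0 cells, a mouse melanoma line, were grown as tumors in CAG-GFP mice of both sexes aged 8 to 14 weeks, which express GFP ubiquitously, and the tumors were removed on day 15. GFP+ cells of the host that were negative for hematopoietic lineage markers and positive for CD34 were sorted into endovascular progenitors (EVP, CD31lo VEGFR2lo), transit amplifying cells (TA, CD31int VEGFR2lo) and definitive differentiated cells (D, CD31hi VEGFR2hi). All 3 populations came from tumor-bearing hosts, and the gates themselves used CD31 and VEGFR2. Each population had 5 RNA sequencing libraries. The labels do not say that the 5 replicates came from separate animals, so p-values measure the spread between these samples.

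Krüppel-like factors are transcription factors with C2H2 zinc fingers that bind CACCC and GC-rich elements. In endothelium, laminar flow induces KLF2 and KLF4 through the kinases MEK5 and ERK5 and the MEF2 factors, and both proteins restrain inflammation and clotting. Other members answer to hormones and growth factors, such as KLF9 and KLF15 to glucocorticoids and KLF10 to TGF-beta.

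The promoters of 4 members are shown because these genes carry the results that follow. *Klf2* and *Klf4* are the flow-responsive pair, *Klf9* was higher in EVP, and *Klf7* was higher in D. Each sequence runs from 250 bases before to 50 bases after the RefSeq start in GRCm38.p6, read 5′ to 3′ on the strand of the gene. Capitals mark a CACCC box, a GC box (spelled GGGCGG) or a MEF2 motif (spelled CTANNNNTAG) on either strand, and neighboring matches can overlap. The windows lie at chr8:72318812-72319111 (+) for *Klf2*, chr4:55532426-55532725 (-) for *Klf4*, chr19:23140976-23141275 (+) for *Klf9* and chr1:64121340-64121639 (-) for *Klf7*.
Klf2: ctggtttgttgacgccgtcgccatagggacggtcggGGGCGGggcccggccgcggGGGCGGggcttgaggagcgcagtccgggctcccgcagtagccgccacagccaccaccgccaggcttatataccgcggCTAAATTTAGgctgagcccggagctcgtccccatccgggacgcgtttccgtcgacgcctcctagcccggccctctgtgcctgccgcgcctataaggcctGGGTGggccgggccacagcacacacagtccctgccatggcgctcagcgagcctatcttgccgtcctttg
Klf4: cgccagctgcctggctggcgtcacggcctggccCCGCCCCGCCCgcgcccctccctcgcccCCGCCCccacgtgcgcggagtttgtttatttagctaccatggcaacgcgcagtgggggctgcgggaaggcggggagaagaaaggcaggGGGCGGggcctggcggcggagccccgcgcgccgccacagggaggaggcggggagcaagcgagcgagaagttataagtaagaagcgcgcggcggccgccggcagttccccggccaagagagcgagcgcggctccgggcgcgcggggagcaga
Klf9: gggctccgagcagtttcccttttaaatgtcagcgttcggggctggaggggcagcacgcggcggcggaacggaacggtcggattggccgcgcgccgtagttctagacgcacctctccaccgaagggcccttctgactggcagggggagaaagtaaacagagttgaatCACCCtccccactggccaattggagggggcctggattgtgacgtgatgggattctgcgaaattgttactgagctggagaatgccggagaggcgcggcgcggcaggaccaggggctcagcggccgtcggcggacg
Klf7: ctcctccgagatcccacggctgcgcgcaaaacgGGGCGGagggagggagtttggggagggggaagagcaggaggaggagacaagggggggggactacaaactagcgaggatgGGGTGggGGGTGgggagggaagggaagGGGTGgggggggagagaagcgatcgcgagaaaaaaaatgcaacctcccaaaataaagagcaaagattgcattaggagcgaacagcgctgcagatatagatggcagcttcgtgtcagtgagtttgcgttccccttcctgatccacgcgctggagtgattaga

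Promoters were listed for 8 members, and *Klf5* and *Klf10* were not searched. The MEF2 motif was present in 1 of the 8, *Klf2*, where CTAAATTTAG begins 118 bases before the start, and in 3.69% of all 32851 promoters. CACCC occurred in 6 of the 8 members and in 57.5% of all promoters, with *Klf4* and *Klf6* lacking it. GGGCGG occurred in 7 of the 8, all except *Klf9*, and in 35.7% of all promoters. The glucocorticoid half-site AGAACA was in none of the 8, *Klf9* and *Klf15* included, and in 19.0% of all promoters, while the cyclic AMP response element TGACGTCA was also in none and in 1.79% of all. These matches describe letters within the window and do not show binding.

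The libraries held 5394356 to 26513073 reads on genes. The 3 libraries numbered 1 were the shallowest of their populations, and in them 82.1% to 98.4% of olfactory receptor genes, which are mostly silent outside the nose, had at least 1 read. In the other libraries this share ran from 2.93% to 70.9%. The labelled cell type was compared with defining endothelial transcripts. *Cdh5*, encoding VE-cadherin, measured 72.3 ± 67.9 normalized counts in EVP, 2781 ± 2866 in TA and 9818 ± 2251 in D (SD, n = 5). Of 10 endothelial genes, 9 were called higher in D than in EVP and 8 higher in TA than in EVP, beside 7.46% and 1.94% of all genes. The list holds *Pecam1* and *Kdr*, the genes of the CD31 and VEGFR2 used in the gates. Calls of these genes are therefore no independent check of the label. *Erg* was not called between EVP and TA, and neither comparison called *Tek*, the angiopoietin receptor, at 1578 ± 747 in EVP, 583 ± 325 in TA and 2379 ± 681 in D. All 9 genes of a fibroblast list were called higher in EVP than in D, beside 11.6% of all genes. Their summed level ran from 845300 to 1502000 normalized counts in EVP libraries, 192300 to 609300 in TA and 1145 to 4191 in D. The part of these differences in the Klf results was not tested. In sorted bulk populations, fewer cells of one kind and less RNA per cell cannot be told apart.

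The comparison of EVP with D asked which Krüppel-like factors differed between CD31lo VEGFR2lo and CD31hi VEGFR2hi cells. These populations also differed in the fibroblast and endothelial transcripts given above, and the part of that difference was not tested. *Klf4* and *Klf9* were several-fold higher in EVP, with *Klf15* also higher there, whereas *Klf7*, *Klf10* and *Klf13* were higher in D. Thus 6 of the 10 members were called, 3 in each direction, at a Benjamini-Hochberg adjusted p under 0.05 in limma on log2(normalized count + 1). Among all 25549 genes tested, 19.0% were called, 11.6% higher in EVP and 7.46% higher in D. Libraries of the populations did not overlap for 4 members (*Klf4*, *Klf7*, *Klf9* and *Klf10*), and for 17.7% of all genes. The median log2 fold change was 0.55 over the members and 0.46 over all genes, and the median size regardless of direction was 1.21 over the members and 0.75 over all genes. Quantile normalization moved the median over all genes to -0.05 and the calls over all genes from 2952 higher in EVP and 1907 higher in D to 1920 and 1983. The 6 called members kept their direction under it and under every other alternative run.

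**Figure D1:**
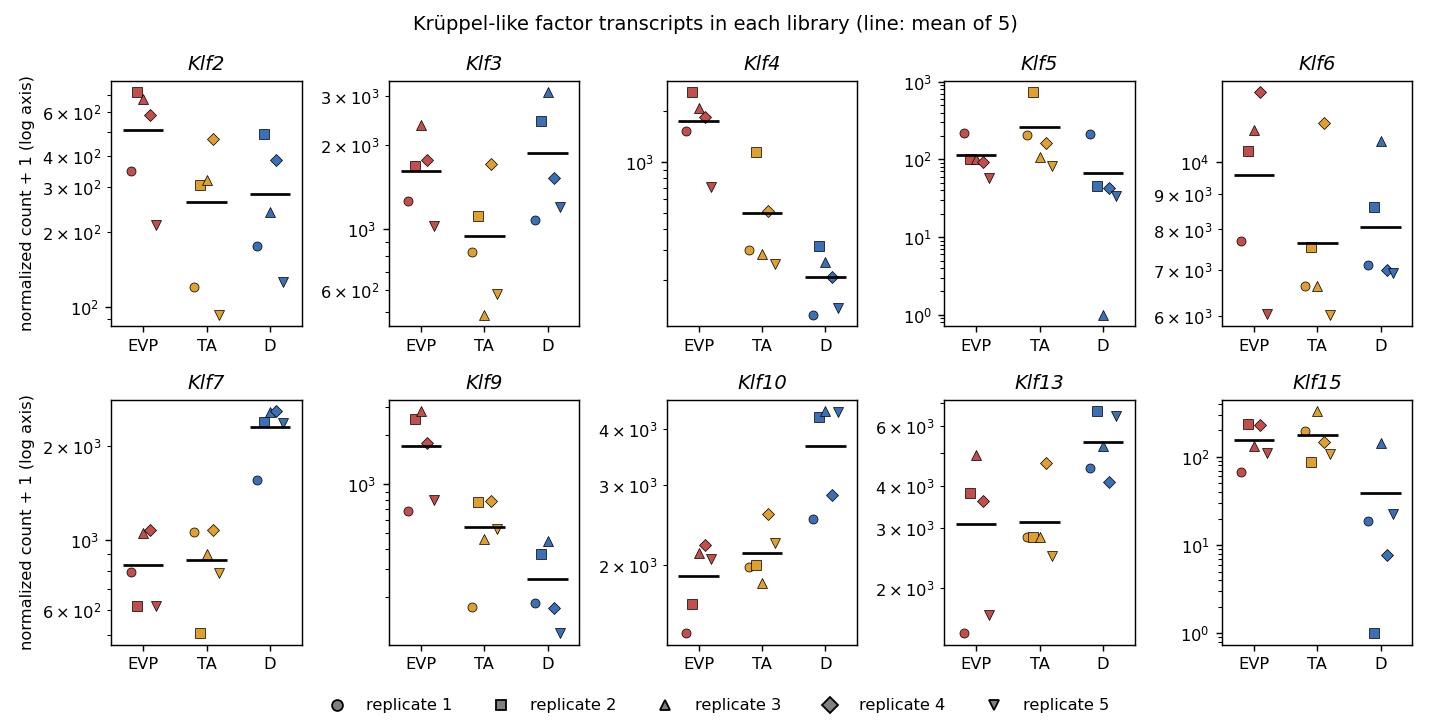
Normalized counts (plus 1, log axis, a different range in each panel) of the 10 members in 5 libraries each of EVP, TA and D. Symbols mark the replicate number and lines the mean of 5. *Klf4* and *Klf9* step down from EVP to D with every EVP library above every D library, and every D library of *Klf7* lies above every EVP and TA library.

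*Klf4* (chr4:55527143-55532466, minus strand), which helps to keep endothelium quiescent and is one of the reprogramming factors, stepped down from EVP through TA to D. EVP replicates 1 to 5 held 1527, 2576, 2066, 1835 and 704 normalized counts. TA replicates held 302, 1142, 285, 513 and 248, and D replicates 124, 315, 254, 207 and 136. The lowest EVP library stood above the highest D library, and TA overlapped both. The mean was 1742 ± 695 in EVP, 498 ± 375 in TA and 207 ± 80.5 in D. *Klf4* was 8.41-fold higher in EVP than in D (log2 fold change 3.03, SE 0.42, limma adjusted p = 3.6e-05), and the call held when any single library was left out. Against TA it was 3.50-fold higher (log2 fold change 1.94, SE 0.42, adjusted p = 0.016). That second call was lost without EVP replicate 2 (adjusted p = 0.058), without EVP replicate 3 (0.051) or without the 3 libraries numbered 1 (0.12). TA and D differed by a log2 fold change of 1.09 (95% interval 0.20 to 1.99, adjusted p = 0.11).

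*Klf2* (chr8:72319033-72321656, plus strand), the other factor induced by flow, was not called in any comparison of the main fit. EVP replicates 1 to 5 measured 348, 717, 674, 579 and 212 normalized counts. TA replicates measured 119, 306, 320.3, 469 and 92.2, and D replicates 174, 488, 239, 386 and 124. All 3 populations overlapped, and replicate 5 was the lowest library of each. The EVP mean of 506 ± 218 was 1.79 times that of D (282 ± 151) and 1.94 times that of TA (261 ± 156). Neither difference passed the test in the main fit. The log2 fold change was 0.88 against D (95% interval -0.15 to 1.91, limma adjusted p = 0.28) and 1.07 against TA (0.04 to 2.10, adjusted p = 0.30). With the replicate number as a block in limma, both were called (adjusted p = 0.018 and 0.023). EVP was higher in all 5 same-number pairs of each comparison, but the labels do not say that these numbers pair the samples.

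*Klf9* (chr19:23141226-23166911, plus strand), a factor induced by glucocorticoid and thyroid hormones, followed the order of *Klf4*. The EVP libraries held 685, 2517, 2840.3, 1804 and 801 normalized counts. The TA libraries held 174, 776, 459.8, 788 and 527, and those of D 183, 371, 445, 171 and 119. EVP replicates 1 and 5 were the low libraries of their population but still exceeded all D libraries. Mean *Klf9* was 1729.5 ± 976 in EVP, 545 ± 254 in TA and 258 ± 141 in D. EVP exceeded D 6.71-fold (log2 fold change 2.69, SE 0.49, limma adjusted p = 5.3e-04). The call held in all 15 fits that left out a library. EVP exceeded TA by a log2 fold change of 1.62 (95% interval 0.59 to 2.65, adjusted p = 0.082), and TA exceeded D by 1.08 (0.04 to 2.11, adjusted p = 0.19), neither past the threshold. The TA difference from D was called with array weights (log2 fold change 1.62, adjusted p = 0.019) or without TA replicate 1 (1.44, adjusted p = 0.046). *Klf9* overlaps *Mir1192*, and its coordinates in the file differ from those of the annotation used for exon length.

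*Klf15* (chr6:90462576-90475238, plus strand), a glucocorticoid target that governs amino acid and lipid metabolism, was scarce. It measured 66.7, 235, 132, 226 and 109.9 normalized counts in EVP replicates 1 to 5. TA libraries measured 196, 87.0, 333, 146 and 106, and D libraries 17.8, 0, 144, 6.76 and 21.8. D was low except in replicate 3, which lay within the EVP and TA ranges, and the 0 in D replicate 2 allows up to 3 reads, or 2.45 normalized counts. EVP (154 ± 73.9) exceeded D (38.0 ± 59.8) by a log2 fold change of 3.35 (SE 0.91, limma adjusted p = 0.014), and TA (174 ± 98.2) exceeded D by 3.51 (SE 0.91, adjusted p = 0.016). The ratios of mean normalized counts were smaller than these log2 values imply, 4.05 and 4.57, and D replicate 3 holds most of the D mean. On whole reads the log2 fold changes were 1.98 and 2.13 in edgeR (adjusted p = 0.19 and 0.20) and 2.02 and 2.19 in DESeq2 (0.0906 and 0.075), and neither difference was called there, nor after quantile normalization (0.19 and 0.10) or without the 3 libraries numbered 1 (0.051 and 0.071). The TA difference was also lost when TA and D were fitted alone (0.051). EVP and TA differed by -0.15 (95% interval -2.08 to 1.77).

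*Klf7* (chr1:64029447-64122282, minus strand), a broadly expressed factor best known from neuronal development, set D apart from both other populations. EVP replicates 1 to 5 held 790.0, 614, 1056, 1075 and 617 normalized counts. TA replicates held 1057, 503.7, 901, 1078 and 785, while D replicates held 1554, 2373, 2558, 2581 and 2365. All D libraries exceeded all EVP and TA libraries, and EVP and TA ran side by side. D (2286 ± 421) was 2.75-fold above EVP (831 ± 226; log2 fold change of EVP against D -1.48, SE 0.24, limma adjusted p = 1.7e-04) and 2.64-fold above TA (865 ± 235; -1.43, SE 0.24, adjusted p = 5.9e-04). These calls were made under all alternatives and in all 15 fits without a library. EVP and TA differed by -0.05 (95% interval -0.56 to 0.45). *Klf7* overlaps *Gm13748*, *Gm26649* and *Mir6899*, and reads of overlapping genes could not be separated here.

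*Klf10* (chr15:38291463-38300706, minus strand), the TGF-beta-inducible early gene, had the same order with a smaller step. It measured 1408, 1634, 2119.6, 2215 and 2058 normalized counts in EVP and 1972, 1995, 1824, 2582 and 2231 in TA. D replicates measured 2522, 4247, 4385, 2846 and 4355. All D libraries lay above all EVP libraries, and 1 TA library reached above the lowest D library. The D mean of 3671 ± 909.7 was 1.95 times that of EVP (1887 ± 348; log2 fold change -0.94, SE 0.19, limma adjusted p = 0.0014) and 1.73 times that of TA (2121 ± 296; -0.76, SE 0.19, adjusted p = 0.012). Both calls were made in every fit without a library and in every alternative except the one that required a log2 fold change of at least 1.

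*Klf13* (chr7:63886351-63938915, minus strand), known for regulating the chemokine RANTES in T lymphocytes, was also higher in D. Its EVP libraries held 1468, 3817, 4914, 3605 and 1661 normalized counts, with replicates 1 and 5 far below the rest. TA libraries held 2832, 2833, 2816, 4681 and 2476, and D libraries 4499, 6659, 5247, 4103 and 6419. EVP and D overlapped through EVP replicate 3. D (5385 ± 1134) was 1.74-fold above EVP (3093 ± 1483; log2 fold change -0.93, SE 0.30, limma adjusted p = 0.035). The call was lost without EVP replicate 1 (log2 fold change -0.70, adjusted p = 0.10), EVP replicate 5 (0.0998), D replicate 2 (0.0907), D replicate 3 (0.063) or D replicate 5 (0.088), in edgeR (0.096), without a minimum mean (0.059) and without the 3 libraries numbered 1 (0.15). Against TA (3128 ± 881) the difference was -0.80 (95% interval -1.42 to -0.17, adjusted p = 0.096), which was called when TA and D were fitted alone (0.025). *Klf13* overlaps *E030018B13Rik* and *Gm27252*.

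The remaining members, *Klf3*, *Klf5* and *Klf6*, were not called in any comparison of the main fit. *Klf6* (chr13:5861482-5870394, plus strand), induced early after vascular injury, ranged from 6045 to 12618 normalized counts in EVP, 6024 to 11389 in TA and 6926 to 10719 in D, and its EVP and D means differed by a log2 fold change of 0.22 (95% interval -0.23 to 0.67). *Klf3* (chr5:64803388-64832901, plus strand), a repressor that recruits CtBP, ranged from 1026 to 2365 in EVP, 489 to 1717 in TA and 1078 to 3106 in D. It was lowest on average in TA, with a log2 fold change of TA against D of -1.01 (95% interval -1.76 to -0.26, limma adjusted p = 0.075). That difference was called without TA replicate 4 (adjusted p = 0.022) or D replicate 1 (0.041). *Klf3* overlaps *Gm20033* and *C230096K16Rik*.

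*Klf5* (chr14:99298691-99315036, plus strand), a factor of epithelium and proliferating smooth muscle, was the most uneven of the uncalled members. EVP replicates 1 to 5 measured 218, 99.3, 101, 91.9 and 57.4 normalized counts. TA replicates measured 205, 732, 106, 161 and 82.2, and D replicates 209, 44.9, 0, 41.3 and 32.6. TA replicate 2 stood above the rest. EVP replicate 1 and D replicate 1 were the high libraries of their populations, and in them 98.4% and 89.5% of olfactory receptor genes had a read. TA exceeded D by a log2 fold change of 2.79 (95% interval 0.66 to 4.92, limma adjusted p = 0.086), which became 3.53 and was called without D replicate 1 (adjusted p = 0.019). Without D replicate 3, the library with no read, it was 1.61 and not called. Transcripts of keratinocytes, in which KLF5 is also present, moved with the populations. All 6 keratinocyte genes were called higher in TA than in D, beside 8.21% of all genes. The keratinocyte genes summed to 1883 to 73200 normalized counts in TA, 1100 to 7031 in EVP and 103.9 to 2000 in D. Their part in the *Klf5* level was not tested.

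**Figure D2:**
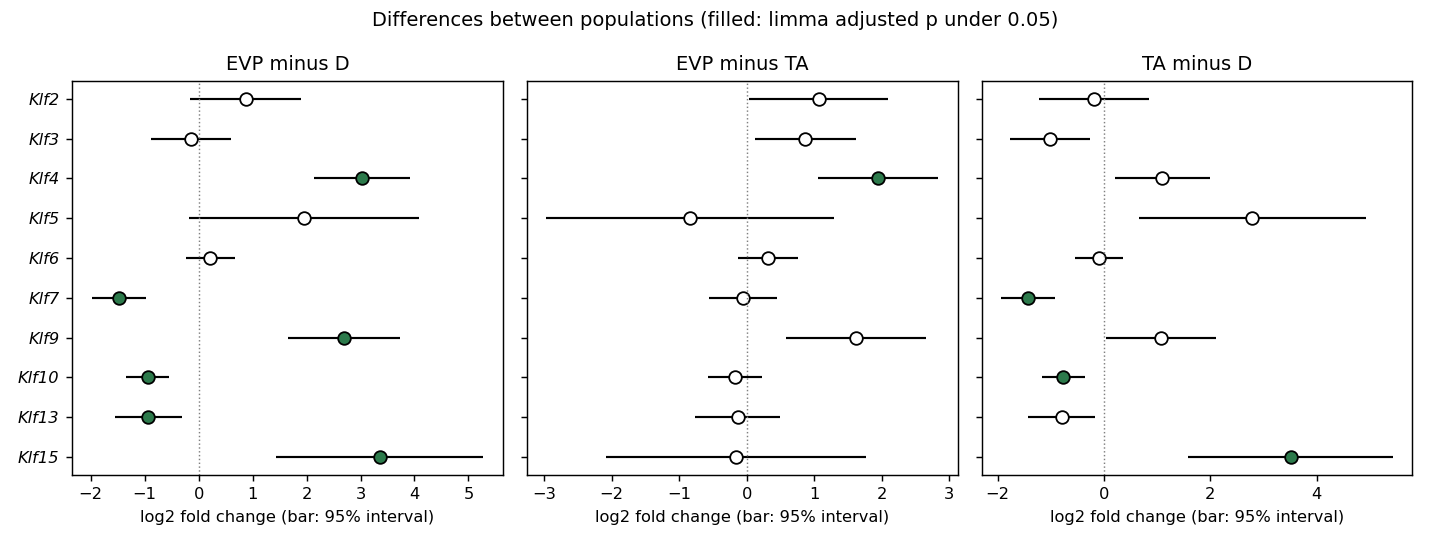
Log2 fold changes of the 10 members for EVP minus D, EVP minus TA and TA minus D, with 95% intervals from limma. Filled points passed an adjusted p of 0.05. There were 6 filled points for EVP minus D, 1 (*Klf4*) for EVP minus TA and 3 (*Klf7*, *Klf10* and *Klf15*) for TA minus D.

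Comparison of EVP with TA asked which members differed between the VEGFR2lo populations. *Klf4* was the 1 member of 10 called, against 3.50% of all genes, of which 1.56% were higher in EVP and 1.94% in TA. No member separated the libraries of EVP and TA without overlap, as 4.29% of all genes did. Between TA and D, 3 members were called, *Klf15* higher in TA and *Klf7* and *Klf10* higher in D. In this comparison 12.5% of all genes were called, 8.21% higher in TA and 4.31% higher in D. The libraries did not overlap for *Klf7* alone among the members and for 9.25% of all genes. The 3 comparisons share their libraries and are not independent of each other.

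The position of TA between the other populations was computed on mean log2 values, with 0 at EVP and 1 at D. TA lay between the ends for 5 members. *Klf4* and *Klf9* stood at 0.64 and 0.60, beyond the middle toward D. *Klf7* (0.03), *Klf13* (0.14) and *Klf10* (0.19) stood near EVP. TA was outside the range of EVP and D for *Klf2*, *Klf3* and *Klf6*, where it was lowest, and for *Klf5* and *Klf15*, where it was highest. These positions are means without a test. TA differed from D by -0.19 for *Klf2* and -0.10 for *Klf6*. EVP differed from TA by -0.83 for *Klf5* and -0.15 for *Klf15*, and none of these differences was called.

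Levels of different members were compared as normalized counts per kb of exon. *Klf6* was the most abundant in every population, at 2179 ± 606 per kb in EVP, 1741 ± 493 in TA and 1837 ± 373 in D. The order below it differed. In EVP *Klf4* ranked second at 571 ± 228 per kb, ahead of *Klf10* (452 ± 83.2), *Klf13* (411 ± 197) and *Klf9* (359 ± 203), whose SDs overlapped. In D *Klf10* (878 ± 218) and *Klf13* (715 ± 151) followed *Klf6*, while *Klf4* ranked seventh at 67.9 ± 26.4 and *Klf9* eighth at 53.5 ± 29.4 per kb. *Klf5* was last in all 3 populations, at 12.6 to 49.5 per kb on average.

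**Figure D3:**
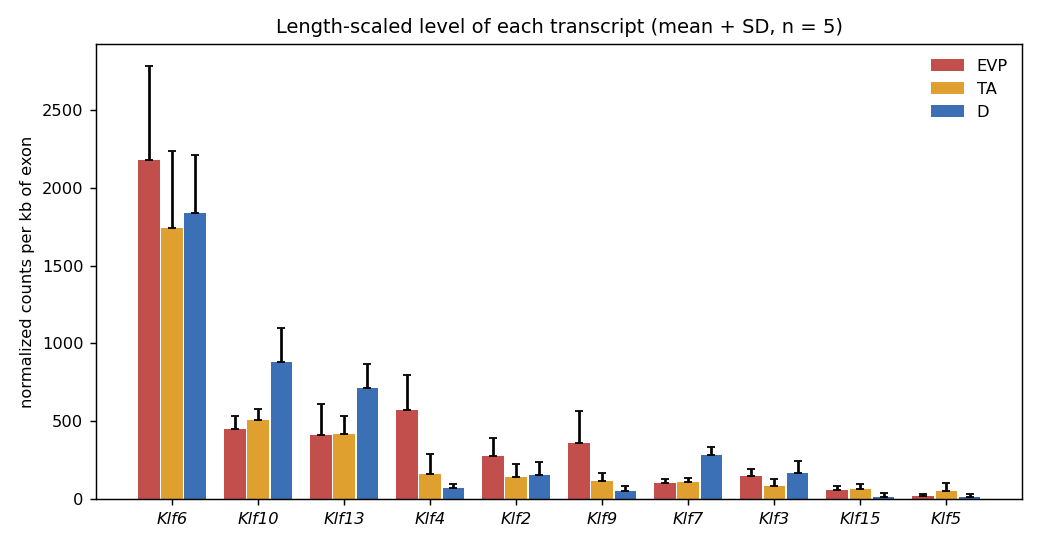
Mean level of each member in normalized counts per kb of exon, with the SD above each bar (n = 5), in EVP, TA and D. *Klf6* exceeds all others in each population, and *Klf4* ranks second in EVP and seventh in D.

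Genes that act upstream of *Klf2* and *Klf4* were called in both directions. Of 13 such genes, 2 were called higher in EVP than in D and 4 higher in D, beside 11.6% and 7.46% of all genes. *Mef2c*, a MEF2 factor that activates *Klf2*, fell toward EVP, from 4064 ± 668 normalized counts in D to 2034 ± 534 in TA and 872 ± 375 in EVP (log2 fold change of EVP against D -2.32, SE 0.28, limma adjusted p = 7.3e-06). *Mef2a* had the same order (-1.65, adjusted p = 1.6e-06). *Heg1*, a receptor whose loss raises KLF2 and KLF4 in endothelium, was 2.69-fold higher in EVP (1.32, adjusted p = 0.0024). The kinase gene *Map3k2* was also higher there (1.16, SE 0.25, adjusted p = 0.0022). In the same list, *Pdcd10* was higher in D (-0.99, limma adjusted p = 0.0011), while *Krit1* (0.04) and *Ccm2* (-0.26) were not called. The list thus mixes genes that raise KLF2 and KLF4 with genes that restrain them. *Mapk7*, encoding ERK5, measured 723 ± 139 in EVP, 563 ± 213 in TA and 815 ± 110.1 in D and was not called (EVP against D -0.18, adjusted p = 0.76).

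Among 8 genes that KLF2 or KLF4 is known to induce in endothelium, 2 were called higher in EVP and 4 higher in D. Over all genes, 11.6% were higher in EVP and 7.46% in D. *Nos3*, endothelial nitric oxide synthase, measured 27.4 ± 22.0 normalized counts in EVP, 596 ± 693 in TA and 2728 ± 474 in D (EVP against D -7.06, SE 0.76, limma adjusted p = 2.1e-06). *Cdh5* (-7.54), *S1pr1* (-6.81), the receptor for sphingosine 1-phosphate, and *Aqp1* (-4.04), a water channel, were also lower in EVP. *Thbd*, the anticoagulant thrombomodulin, went the other way, at 3531 ± 1853 in EVP, 1065 ± 230.1 in TA and 1603 ± 477 in D (EVP against D 1.02, SE 0.33, adjusted p = 0.038). Leaving out the 3 libraries numbered 1 left 0 of the 8 called higher in EVP.

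Of 7 genes that KLF2 or KLF4 is known to repress, 3 were called higher in EVP and 3 higher in D. The shares of all genes were 11.6% and 7.46%. Tissue factor (*F3*) was 45.5-fold higher in EVP than in D (log2 fold change 5.46, SE 0.39, limma adjusted p = 1.9e-08). The chemokine *Ccl2* was 15.6-fold higher (3.95, adjusted p = 7.6e-09). *Angpt2*, the angiopoietin of destabilized vessels, was 78.8-fold higher in D (-6.89, SE 0.61, adjusted p = 2.7e-07), and the leukocyte adhesion gene *Sele* 4.19-fold higher (-2.64, SE 0.73, adjusted p = 0.016). The *Sele* call was lost in edgeR and without D replicate 2. The medians over the induced and the repressed genes were -2.38 and -0.88, beside 0.46 over all genes. The endothelial list, which holds the gating genes *Pecam1* and *Kdr*, gave a median of -6.82, with 9 of its 10 genes higher in D. *Cdh5* and *Tek* stand in both that list and the induced one.

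**Figure D4:**
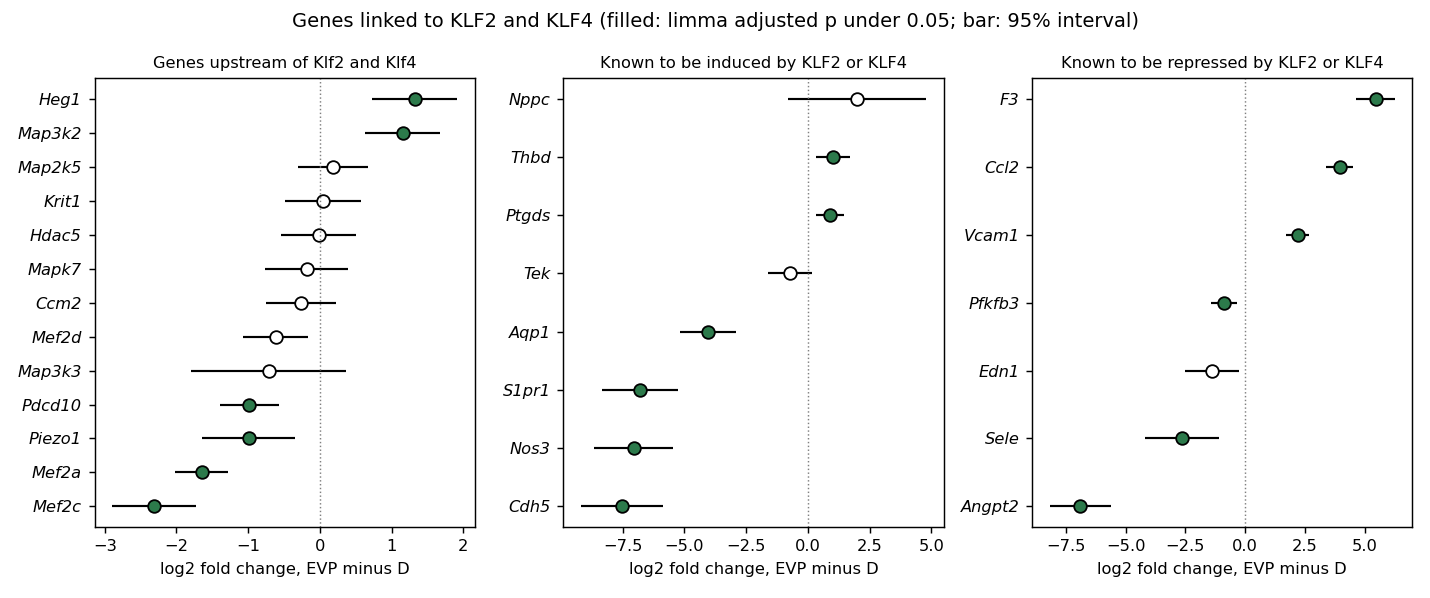
Log2 fold changes of EVP minus D, with 95% intervals from limma, for 13 genes upstream of *Klf2* and *Klf4*, 8 genes they are known to induce and 7 they are known to repress. Filled points passed an adjusted p of 0.05, and each panel holds filled points on both sides of 0.

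Genes of the glucocorticoid response, the receptor gene *Nr3c1* and the enzyme gene *Hsd11b1* included, were examined beside *Klf9* and *Klf15*. Of 7 genes, 2 were called higher in EVP than in D and 0 higher in D, beside 11.6% and 7.46% of all genes. *Hsd11b1*, the enzyme that regenerates active glucocorticoid, was 60.7-fold higher in EVP (6.67, SE 0.79, limma adjusted p = 6.2e-06), and the zinc finger gene *Zbtb16* 20.1-fold higher (4.67, SE 0.88, adjusted p = 7.6e-04). *Nr3c1*, the glucocorticoid receptor itself, measured 1519 ± 432 in EVP, 1206 ± 445 in TA and 1949 ± 417 in D and was not called (-0.37, adjusted p = 0.42). The median of the 7 was -0.37, on the other side of 0 from the 2 calls. *Fkbp5* (-1.04, limma adjusted p = 0.084) and *Sgk1* (-0.82, 0.10) lay lower in EVP without a call. Between TA and D, 1 gene was called higher in TA and 2 higher in D, beside 8.21% and 4.31% of all genes. The latter were *Fkbp5* (-1.41, limma adjusted p = 0.025) and *Sgk1* (-1.285, 0.014). Among 8 tested adipocyte genes, a lineage in which KLF9 and KLF15 act, 4 were higher in EVP and 2 in D. The shares of all genes were again 11.6% and 7.46%. *Lpl* was higher in EVP (4.27, adjusted p = 2.2e-06), as was *Cebpb* (3.13, adjusted p = 0.0015), while *Fabp4* (-5.49) and *Pparg* (-3.21) were higher in D. The defining adipocyte transcript *Adipoq* was at or under 3 reads in 4 of 5 libraries of each population.

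Calls among partners and relatives of the KLF proteins stand beside the 19.0% of all genes called between EVP and D. Of 10 cofactor genes, 1 was called, the deacetylase *Hdac1*, at 1327 ± 227 normalized counts in EVP and 2133 ± 282 in D (-0.69, SE 0.16, limma adjusted p = 0.0035). Of the 6 tested Sp factor genes, the nearest relatives of the family, 1 was called, *Sp3*, 1.51-fold higher in EVP than in D (0.58, SE 0.18, adjusted p = 0.028), a call lost in edgeR, without a minimum mean, with equal totals and without the 3 libraries numbered 1. The 7 remaining Klf genes were low or even. *Klf1*, the erythroid factor, did not reach a mean of 5 normalized counts, and none of the other 6 was called by limma in any comparison, with an unadjusted p under 0.05 for 0, 0 and 1 of them in EVP against D, EVP against TA and TA against D. *Klf11* had the highest mean of the 7, 409.7 ± 201 in EVP, 451 ± 249.8 in TA and 281 ± 22.7 in D. *Klf8*, *Klf12*, *Klf14* and *Klf17* each peaked in EVP replicate 1, at 309, 228, 45.6 and 94.8 normalized counts, the library with reads on the most olfactory receptor genes.

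Several KLF genes are immediate-early genes, so transcripts of that class were examined. Of 17 immediate-early genes, 9 were called higher in EVP than in D and 0 lower, and 8 were higher in TA than in D and 0 lower. Over all genes, 11.6% were called higher in EVP than in D and 8.21% higher in TA than in D. Immediate-early genes summed to 83410 to 259600 normalized counts in EVP, 57580 to 132900 in TA and 45920 to 52210 in D. *Egr1* was 7.99-fold higher in EVP than in D (2.86, SE 0.37, limma adjusted p = 1.9e-05), *Fos* 7.56-fold (2.81), *Fosb* 7.49-fold (2.81) and *Egr2* 17.7-fold (5.03). These genes, which cell dissociation is also known to induce, moved in the direction of *Klf4* and *Klf9* and against that of *Klf7*, *Klf10* and *Klf13*, and their part in the Klf levels was not tested. Marker lists of other cells were also compared between EVP and D. Of 6 keratinocyte genes 3 were higher in EVP (*Krt14*, *Krt5* and *Trp63*) and 0 in D. Of 8 mural genes 3 were higher in EVP and 2 in D, of 8 leukocyte genes 1 was higher in EVP (*Csf1r*, 1.40), and of 7 melanoma genes 1 was higher in EVP (*Mitf*, 1.70). The leukocyte and melanoma counts were near the 11.6% of all genes called higher in EVP, beside 7.46% higher in D. In TA, 5 mural, 5 leukocyte and all 7 melanoma genes were called higher than in D, beside 8.21% of all genes. Against EVP, 2 mural, 2 leukocyte and 3 melanoma genes were called higher in TA and 0 lower. The share of all genes called higher in TA than in EVP was 1.94%. Melanoma genes summed to 29780 to 67410 normalized counts in EVP, 69330 to 176200 in TA and 18210 to 47920 in D. The part of these transcripts in the Klf levels was not tested. None of the 4 erythroid genes was called in any comparison by limma or had an unadjusted p under 0.05.

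For each called member, the genes most like it over the 15 libraries were listed by Pearson correlation of log2(normalized count + 1). The libraries share population and replicate differences, so these values only describe likeness. *Klf4* was most like *Rras2* (r = 0.97), *Irf7* (0.96) and *Tgfbr3* (0.96). *Klf9* was most like *Cdkn1c* (0.94), *Trim8* (0.93) and *Tgfbr3* (0.93), so the coreceptor gene *Tgfbr3* was near both. *Klf7* was most like *Plcg1* (0.96), *Agap3* (0.96) and *Btbd9* (0.95). *Klf10* was most like *Exosc10* (0.97), *Tpm3* (0.91) and *Mkl2* (0.91), and *Klf13* most like *Otub1* (0.91), *Vps4b* (0.90) and *Dazap2* (0.90). The genes nearest to *Klf15* were *Ninl* (0.91), *Hpse* (0.90) and *Brd3os* (0.90).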

How the data were processed

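RNA from sorted EVP, TA and D cells (15 libraries) was prepared by the authors with a modified Smart-Seq2 protocol, aligned to GRCm38 with STAR 2.5.3a and counted per gene. The deposited values are signal values, gene counts that the authors divided by 1 DESeq2 1.10.1 size factor per library. Division by each library's smallest value above 0 gave whole reads for 100% of values (tolerance 1e-06), 5394356 to 26513073 per library, and 3 reads served as the limit of detection. With no molecular identifiers, limits of detection reflect counting error alone. Whether counting used strand is not given in the sources used here. The authors' own comparison tables hold their fold changes and p-values and were not used.

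The 25549 genes whose mean reached 5 normalized counts were tested with limma 3.58.1 (R 4.3.3) on log2(normalized count + 1). The model had 1 coefficient per population and a moderated variance with trend, tests were two-sided, and p-values were adjusted by Benjamini-Hochberg over all tested genes, with 0.05 as the threshold. Each fold divides 1 population's mean normalized count by another's, and ± gives the SD (n = 5). On this log scale the fold changes of low genes depend on the pseudocount and on libraries near 0, and can lie above or below the ratio of means. Lengths came from GENCODE exons and promoters from RefSeq. The members and gene lists were chosen with earlier results of these data known. By rule, all members were named, and from each list at most 4 called genes with the largest log2 fold change between EVP and D (where none was called, the one with the highest mean), with *Nr3c1*, *Mapk7*, *Mef2c*, *Nos3*, *Thbd* and the remaining Klf genes. The 3 genes most like a member were sought among 18150 with a unique symbol that is no predicted gene. *Adipoq*, *Erg*, *Tek*, *Pecam1* and *Kdr* in the description of markers were named beside the rule, as were *Fkbp5*, *Sgk1*, *Pdcd10*, *Krit1* and *Ccm2*. The results of 1 gene are left out.

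As alternatives, the pseudocount was set to 0.5 or 8, the minimum mean was dropped or raised to 20, and libraries were scaled to equal totals or quantile normalized. Others were array weights, fits of 2 populations, a replicate block, edgeR 4.0.16 and DESeq2 1.42.0 on whole reads, a log2 fold change of at least 1, and omission of each library or of the 3 numbered 1. The fits were tested on simulated data with known changes.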

Additional observations from a re-analysis of the deposited data

Results flagged for a closer look

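Of 30 sets of 5 libraries (10 members in 3 populations), 2 held a library whose gap to its nearest neighbor, divided by the range of the 5 on the log2 scale, passed the 95% limit of Dixon's test. Chance gives about 1 in 20. For *Klf7* in D, replicate 1 was low at 1554 normalized counts beside 2365 to 2581 in the others (ratio 0.828). It still lay above all EVP and TA libraries. For *Klf13* in TA, replicate 4 was high at 4681 beside 2476 to 2833 (ratio 0.788).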

How the results depend on the processing

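Between EVP and D the number of called members, 6, stayed within 4 and 7 under every alternative run and within 5 and 6 when single libraries were left out. Between EVP and TA it was 1, but 2 in DESeq2, 0 without the 3 libraries numbered 1, and 0 to 1 when single libraries were left out, with 0 reached without EVP replicate 2 or 3. Between TA and D it was 3, and 3 to 5 without single libraries, with 5 reached without D replicate 1. Under other alternatives calls of TA against D were also lost. *Klf15* was not called after quantile normalization (limma adjusted p = 0.10), with TA and D fitted alone (0.051) or without the 3 libraries numbered 1 (0.071). It was not called in edgeR (0.20) or DESeq2 (0.075) either, and *Klf10* fell short of a log2 fold change of at least 1. Libraries with the same replicate number correlated from -0.136 to 0.689 in their deviations from the population means, and 11 of 15 such pairs passed 0.1. Libraries with different numbers ran from -0.564 (EVP replicate 1 and TA replicate 5) to 0.401 (EVP replicate 5 and TA replicate 4). Most same-number pairs thus deviated together, but not all did, and some pairs with different numbers did too. The labels name no shared animal or sort. The main fit therefore left the libraries unpaired. With the replicate number as a replicate block, 7, 3 and 7 members were called in EVP against D, EVP against TA and TA against D, *Klf2* among them for EVP against D (adjusted p = 0.018) and against TA (0.023). DESeq2 also called *Klf9* higher in EVP than in TA (0.010) and *Klf4* higher in TA than in D (0.031). Over all genes, calls between EVP and D rose from 4859 to 7609 with array weights. Those between EVP and TA went from 893 to 1900 in DESeq2, 104 without the 3 libraries numbered 1, 429 without EVP replicate 2, 472 without EVP replicate 3 and 560 without TA replicate 3. Those between TA and D went from 3199 to 2117 after quantile normalization and 5054 with array weights. Scaling to the same total changed the split between EVP and TA from 398 higher in EVP and 495 in TA to 237 and 714. The cause of these changes was not tested. No called log2 fold change of a member or of a gene named by the rule reversed. *Klf15* and *Klf5* each had no read in 1 D library, so their log2 fold changes against D depend on the pseudocount.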
